A study of Canis lupus familiaris and Dasypus novemcinctus and Ornithorhynchus anatinus with 3 samples.

Results

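Epithelial junction and identity genes were examined in the endometrium, the lining of the uterus, of pregnant dog, armadillo and platypus. Dog and armadillo are placental mammals (eutherians) and the platypus lays eggs. Each species was represented by 1 messenger RNA library, so no difference has a replicate check, and neither the stage of pregnancy nor the number of animals is given in the labels. A list of 44 symbols covered keratins, adhesion molecules, desmosomes and plakins, tight junctions, a membrane protease system, regulators, and membrane traffic and lipid genes. Members were the symbols listed in at least 2 of the 3 gene tables, which left 31 genes of 12505 symbols so shared. Of the 31 members, 23 were listed in dog, 28 in armadillo, 26 in platypus and 15 in all 3 tables. Another 10 symbols were listed in 1 table, and KRT8, KRT19 and CLDN23 were matched in none.

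Epithelial cells are held together by desmosomes, which anchor keratin filaments, by adherens junctions built on E-cadherin, and by tight junctions, in which claudins set what passes between cells. Grainyhead and ETS-family transcription factors and the ESRP splicing regulators maintain this cell identity, and matriptase with its inhibitors acts at the cell surface. In the uterus the luminal and glandular epithelium forms the surface that meets the embryo or the egg.

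Reads summed to 13625465 in the dog table, 13218476 in the armadillo table and 2243556 in the platypus table. Levels are given as CPM (counts-per-million), a gene's count scaled to the sum of its table, and 1 read was worth 0.0734 CPM in dog, 0.0757 CPM in armadillo and 0.446 CPM in platypus. Bracketed ranges are exact 95% intervals that cover counting error only, and with 1 library per species they hold no variation between libraries. They also treat reads as independent, although PCR copies among the reads carry no molecular identifiers. A gene was called different between 2 libraries where the log2 ratio of CPM + 1 was at least 2 in size (4-fold) and the higher library reached 5 CPM. Folds of single genes are ratios of CPM with no pseudocount. Genes that every cell uses, such as RPS15 and RPS7, were listed at 0 in platypus, and EEF2 and TPT1 were listed at 0 in dog, so a 0 is reported as listed and not as absence. For folds given as "at least", a listed 0 was set to 3 reads, which is 1.34 CPM in platypus. The exact 95% interval of a platypus 0 reaches further, to 1.64 CPM. These folds also leave out the counting error of the higher library. They describe the listed counts and set no lower bound on the difference between species. The armadillo table lists no gene at 0. No gene lengths enter CPM, and differing gene models between the species are part of each fold.

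**Figure D1:**
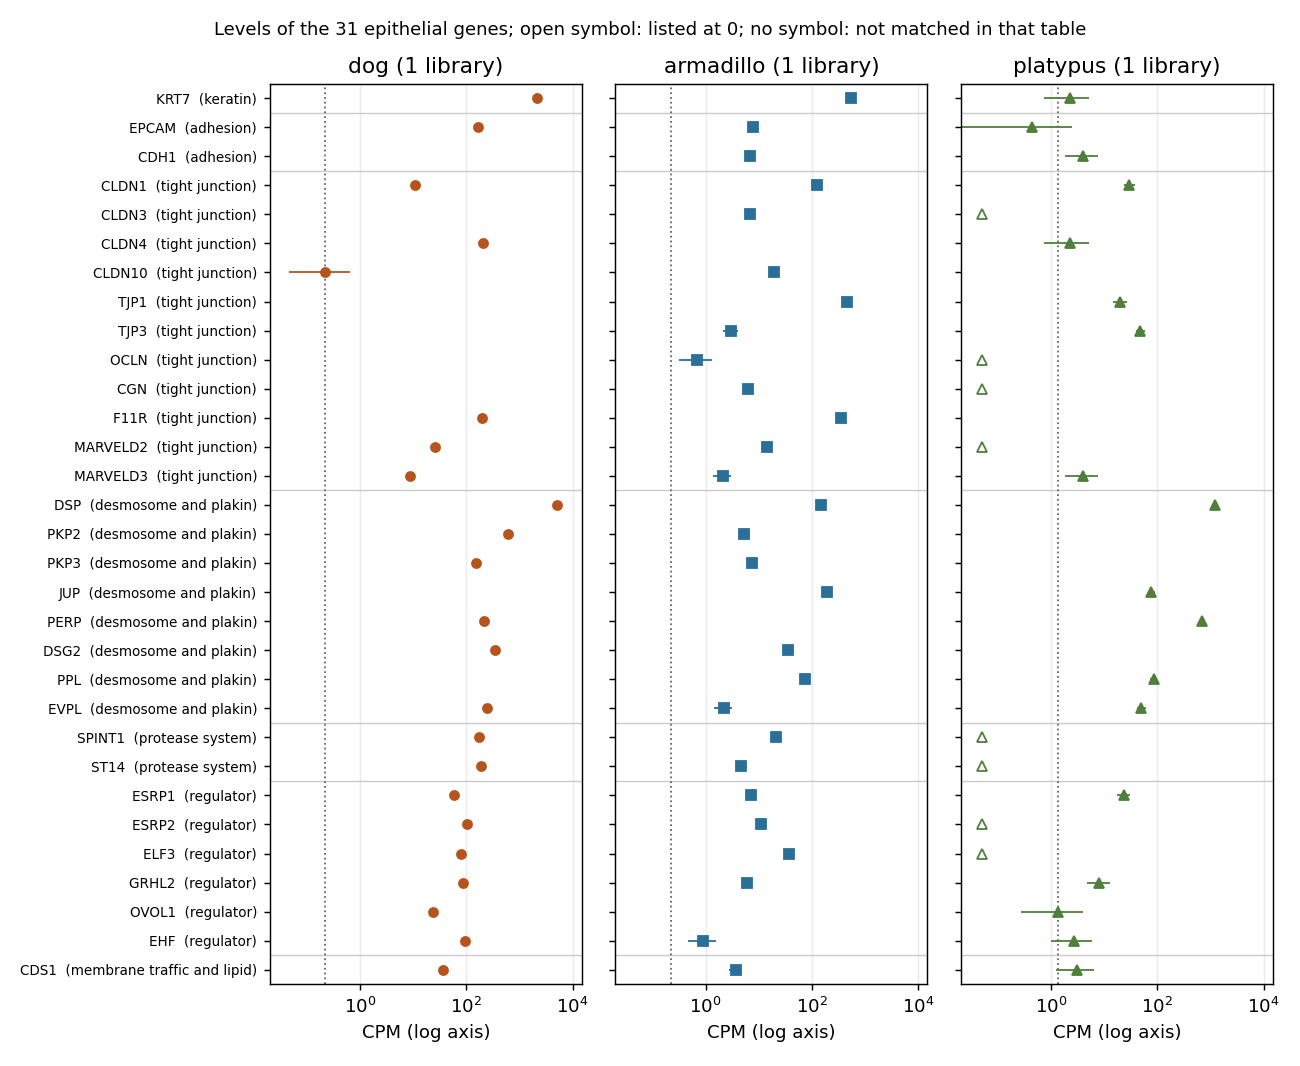
Levels of the 31 members in CPM (log axis), with dog on the left, armadillo in the middle and platypus on the right; bars are exact 95% counting intervals, open triangles are genes listed at 0 and the dotted line is the level of 3 reads; the platypus interval of EPCAM runs past the left edge. DSP stood at 5004 CPM in dog, 147 CPM in armadillo and 1237 CPM in platypus, and 8 members were listed at 0 in platypus.

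Dog had the highest CPM for 14 of the 15 members listed in all 3 tables, and CLDN1 was highest in armadillo. Over all 6386 genes listed in the 3 tables, 39.6% were highest in dog. The 15 members together summed to 8460 CPM in dog, 926 CPM in armadillo and 1361 CPM in platypus. In dog and platypus most of these reads were DSP (59.1% and 90.9%), and in armadillo most were KRT7 (58.1%), with no correction for gene length. Without DSP and KRT7 the sums were 1271 CPM in dog, 242 CPM in armadillo and 122 CPM in platypus. In bulk tissue, fewer epithelial cells and less RNA per epithelial cell cannot be told apart.

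The 2 eutherians were compared first. Of 20 members listed in both tables, 14 (70%) were called higher in dog, against a background of 12.6% of 8908 matched genes, and 2 (10%) were called higher in armadillo, against 13.3%. Dog over armadillo, the members had a median log2 fold of 3.05, and all matched genes one of 0.00. The 2 members higher in armadillo were both claudins. With the dog total inferred from its relative abundance values, all-gene calls were 652 higher in dog and 1614 in armadillo, instead of 1118 and 1183, and 13 members were called higher in dog and 2 in armadillo.

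In the second comparison the members were again mostly higher in dog. Of 18 members listed in both tables, 14 (77.8%) were called higher in dog, against a background of 32.0% of 9073 matched genes, and 0 in platypus, against 9.91%. Dog over platypus, the members had a median log2 fold of 4.07, and all matched genes one of 0.61. It was 3.18 over the 13 members not listed at 0 in platypus, against 0.51 for all such genes, and 3.46 with the zeros set to 3 reads. Without those listed at 0, 9 of 13 members were called higher in dog, against 28.8%. With the dog total inferred from its relative abundance values, all-gene calls were 2329 higher in dog and 1238 in platypus, instead of 2902 and 899, and 12 members were called higher in dog and 2 in platypus.

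Between armadillo and platypus the shares of members called lay close to the background. Of 23 members listed in both tables, 10 (43.5%) were called higher in armadillo, against a background of 36.1% of 7296 matched genes, and 3 (13%) were called higher in platypus, against 11.0%. Armadillo over platypus, the members had a median log2 fold of 1.32, and all matched genes one of 1.06. Without the 8 members listed at 0 in platypus the members' median was -0.19, so its sign rested on those genes, and 4 of 15 were then called higher in armadillo, against 27.5%. Of 16 members at 5 CPM or more in armadillo, 6 (37.5%) were listed at 0 in platypus, against 20.2% of all 5671 such genes. Set against platypus, 6 of 15 members were higher in both eutherians (KRT7, EPCAM, MARVELD2, SPINT1, ESRP2 and ELF3), against a background of 25.8% of 6386 genes, and 0 were lower in both, against 5.48%. Of these 6, MARVELD2, SPINT1, ESRP2 and ELF3 were listed at 0 in platypus. With such genes left out, 2 of 10 members were higher in both, against 18.9%, and with 2 CPM required in each library 1 of 8, against 15.0%. Both of these comparisons share the platypus library.

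**Figure D2:**
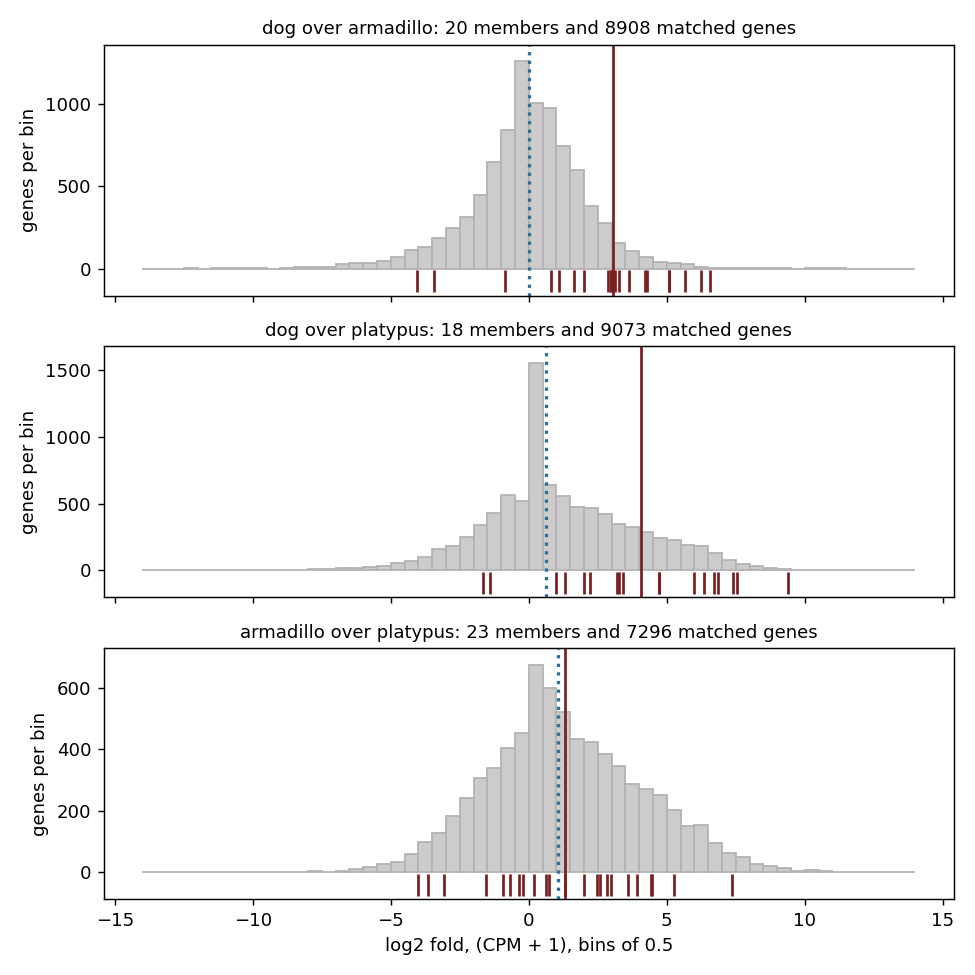
Histograms of the log2 fold of CPM + 1 over all matched genes (grey, bins of 0.5) for dog over armadillo, dog over platypus and armadillo over platypus, with each member as a red tick, the members' median as a red line and the median of all genes as a dotted line. The members' median lay at 3.05, 4.07 and 1.32, and that of all genes at 0.00, 0.61 and 1.06.

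KRT7, a keratin of simple epithelia (ENSCAFG00000007322 in dog), stood at 2185 CPM in dog (2160 to 2210), 538 CPM in armadillo (526 to 551) and 2.23 CPM in platypus (5 reads, 0.724 to 5.20). The dog level was 4.06-fold that of armadillo (3.96 to 4.17), at the limit of the call. Under median-of-ratios scaling its log2 fold was 1.70 and it was not called. The dog level was 980-fold that of platypus (420 to 3020), and the armadillo level 241-fold (103 to 744). KRT18, the type I keratin that pairs with type II keratins, was listed in armadillo only, at 280.3 CPM.

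EPCAM, an epithelial adhesion molecule, stood at 168 CPM in dog, 7.72 CPM in armadillo and 0.446 CPM (1 read) in platypus. It was 21.8-fold higher in dog than in armadillo (17.8 to 26.8), and its 1 read in platypus left the fold of dog over platypus between 67.6 and 14887. CDH1, which encodes E-cadherin of adherens junctions, was listed at 6.81 CPM in armadillo (90 reads) and 4.01 CPM in platypus (9 reads). Its ratio of 1.70 (0.855 to 3.83) included 1, so no difference was detectable at this depth.

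All 5 desmosome and plakin members listed in both dog and armadillo were called higher in dog, against a background of 12.6%. JUP and PPL were not matched in dog, and PERP was not matched in armadillo. Between armadillo and platypus, however, 2 of 4 were higher in platypus (background 11.0%) and 0 in armadillo (36.1%). DSP encodes desmoplakin, which ties keratin filaments to the desmosome (ENSCAFG00000009570 in dog). It stood at 5004 CPM in dog (4967 to 5042), 147 CPM in armadillo (140.2 to 153) and 1237 CPM in platypus (1191 to 1284). Dog was 34.1-fold above armadillo (32.6 to 35.7), and platypus was 8.44-fold above armadillo (7.96 to 8.95). Dog was 4.05-fold above platypus (3.90 to 4.20), a call that was lost under median-of-ratios scaling, where the log2 fold was 1.43.

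EVPL, which encodes envoplakin, a plakin of stratified epithelia, followed the same order. Its level was 240.1 CPM in dog (232 to 249), 2.19 CPM in armadillo (29 reads, 1.47 to 3.15) and 50.4 CPM in platypus (41.5 to 60.6). Dog was 109.5-fold above armadillo (76.1 to 164) and 4.77-fold above platypus (3.95 to 5.80), and platypus was 23.0-fold above armadillo (15.2 to 35.8). The dog over platypus call was lost under median-of-ratios scaling, with a log2 fold of 1.65. PPL (periplakin, which pairs with envoplakin) was listed at 74.9 CPM in armadillo and 85.6 CPM in platypus, a ratio of 0.875 (0.749 to 1.03) that included 1.

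The plakophilins, plaque proteins of the desmosome, separated dog from armadillo. PKP2 stood at 604 CPM in dog and 5.37 CPM in armadillo, 112-fold apart (89.0 to 144), and the intervals of EVPL and EHF in this pair overlapped that range. PKP3 stood at 155 CPM in dog and 7.49 CPM in armadillo, 20.7-fold apart (16.9 to 25.6). The desmosomal cadherin DSG2 was at 354 CPM in dog and 35.6 CPM in armadillo, 9.92-fold apart (9.02 to 10.9). Its partner DSC2 was listed in armadillo only, at 211 CPM.

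Not every desmosome gene was highest in dog. PERP, a tetraspan membrane protein needed for desmosomes in mouse epithelium, stood at 219 CPM in dog and 698 CPM in platypus. Platypus was 3.18-fold higher (2.99 to 3.39), below the limit, and the gene was called higher in platypus under median-of-ratios scaling, with a log2 fold of dog over platypus of -2.25. JUP (plakoglobin, shared by desmosomes and adherens junctions) stood at 195 CPM in armadillo and 77.6 CPM in platypus, a ratio of 2.52 (2.16 to 2.95) that was not called.

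**Figure D3:**
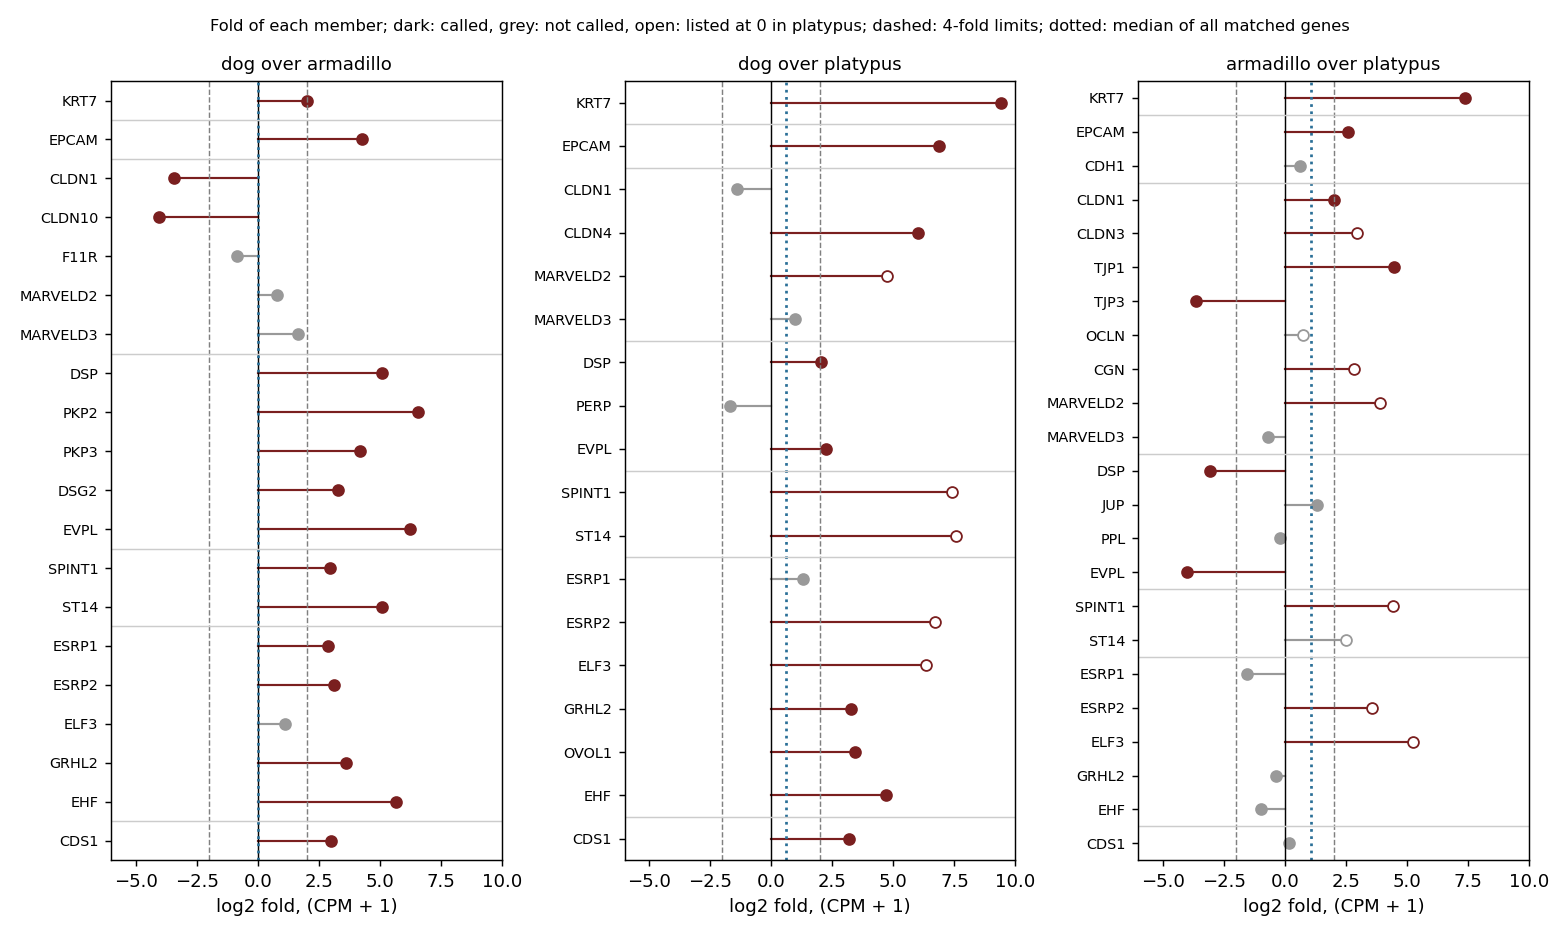
Log2 fold of CPM + 1 for each member in dog over armadillo (20 members), dog over platypus (18) and armadillo over platypus (23), with called genes dark, genes not called grey and genes listed at 0 in platypus open, whose fold depends on the added 1 CPM; dashed lines mark the 4-fold limits and the dotted line the median of all matched genes. DSP and EVPL lie to the right in both dog panels and to the left, at -3.07 and -4.01, in armadillo over platypus.

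Tight junction genes did not move as a block. Between dog and armadillo 0 of the 5 matched by symbol were called higher in dog (background 12.6%) and 2 in armadillo (13.3%). Their median log2 fold was -0.86. Dog rows under UniProt entry names were outside this count. OCLN_CANFA stood at 117 CPM in dog, against 0.681 CPM for OCLN in armadillo. ZO1_CANFA stood at 315 CPM in dog, against 466 CPM for TJP1 in armadillo. CLD3_CANFA, CING_CANFA and ZO3_CANFA, described below, were not matched to a symbol and stood at 149.9, 342 and 193 CPM in dog. The symbols CLDN3, CGN and TJP3 stood at 6.81, 6.20 and 2.95 CPM in armadillo. The count and its median therefore cover only part of the class and leave out these high dog rows. CLDN1, a barrier-forming claudin, stood at 10.6 CPM in dog (8.98 to 12.5), 124 CPM in armadillo (118 to 130.3) and 29.9 CPM in platypus (23.1 to 37.9). Armadillo was 11.7-fold above dog (9.84 to 13.9) and 4.16-fold above platypus (3.26 to 5.39), the second of which was not called under median-of-ratios scaling (log2 fold 1.76). CLDN10, an ion-pore claudin, stood at 0.220 CPM in dog (3 reads) and 19.1 CPM in armadillo, where it was 86.9-fold higher (29.4 to 424).

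Other claudins were abundant in dog. CLDN4 stood at 205 CPM in dog and 2.23 CPM (5 reads) in platypus, 92.0-fold apart (39.4 to 284). CLDN7 and CLDN8 were listed in dog only, at 214 and 200.5 CPM, and CLDN3 stood at 6.81 CPM in armadillo, at least 5.09-fold above its listed 0 in platypus. The dog library combined high CLDN4, CLDN7 and CLDN8 with low CLDN1 and CLDN10. CLDN4 and CLDN3 are neighbours on dog chromosome 6 in the RefSeq gene table (assembly UU_Cfam_GSD_1.0).

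Of the junctional adhesion molecule and MARVEL genes matched by symbol in both eutherians, none of the 3 was called. F11R, which encodes the junctional adhesion molecule JAM-A, stood at 194 CPM in dog and 353 CPM in armadillo, a ratio of 0.550 (0.525 to 0.577) that was not called. MARVELD2 (tricellulin, found where 3 cells meet) stood at 25.5 CPM in dog and 14.1 CPM in armadillo and was listed at 0 in platypus, so that dog was at least 19.1-fold and armadillo at least 10.5-fold higher than platypus. MARVELD3 stood at 8.81 CPM in dog, 2.12 CPM in armadillo and 4.01 CPM in platypus and was called in no pair, although its ratio of dog over armadillo was 4.16 (2.74 to 6.52).

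Scaffold genes separated armadillo from platypus in both directions. TJP1, which encodes the scaffold ZO-1, stood at 466 CPM in armadillo and 20.1 CPM in platypus, 23.2-fold apart (17.3 to 31.9). TJP3 (ZO-3) stood at 2.95 CPM in armadillo and 48.1 CPM in platypus, where it was 16.3-fold higher (11.2 to 24.2). CGN (cingulin, which binds the scaffold) stood at 6.20 CPM in armadillo and was listed at 0 in platypus, so that armadillo was at least 4.64-fold higher. OCLN (occludin) was listed at 0 in platypus and stood at 0.681 CPM (9 reads) in armadillo. That is below 1.34 CPM, the level of 3 reads in platypus, which leaves no fold to report. LSR, which recruits tricellulin, was listed in dog only, at 200.3 CPM.

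Several listed genes have counterparts under other names in the dog table. OCLN_CANFA, ZO1_CANFA and PAX8_CANFA stood at 117, 315 and 79.1 CPM in dog, and the RefSeq gene table gives ZO1 as a synonym of TJP1. Taken under those names, OCLN was 171-fold higher in dog than in armadillo (90.0 to 375), whereas TJP1 was 315 CPM in dog and 466 CPM in armadillo, a ratio of 0.677 (0.651 to 0.704). TJP1 was then 15.7-fold higher in dog than in platypus (11.7 to 21.6). Dog rows named CLD3_CANFA (149.9 CPM), CING_CANFA (342 CPM) and ZO3_CANFA (193 CPM) were not matched, because the tables used do not pair these entry names with a symbol.

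In the protease system, both members were called higher in dog than in armadillo (background 12.6%) and in platypus (32.0%). Only SPINT1 was called higher in armadillo than in platypus (36.1%). Both platypus values are listed zeros. ST14 encodes matriptase, a membrane serine protease of epithelia. It stood at 188 CPM in dog (181 to 195.5) and 4.62 CPM in armadillo (3.53 to 5.93) and was listed at 0 in platypus. Dog was 40.8-fold above armadillo (31.6 to 53.5) and at least 141-fold above platypus, and armadillo, at least 3.45-fold above platypus, was not called. SPINT1, its inhibitor, stood at 169.5 CPM in dog and 20.7 CPM in armadillo and was also listed at 0 in platypus. The inhibitor was 8.18-fold higher in dog than in armadillo (7.21 to 9.30), at least 127-fold higher in dog than in platypus and at least 15.5-fold higher in armadillo than in platypus. SPINT2, a related inhibitor, was listed in armadillo only (22.7 CPM), and PRSS8 (prostasin, activated in the matriptase cascade) in platypus only (26.7 CPM).

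Regulators were higher in dog. Against armadillo 4 of 5 were called (background 12.6%), and against platypus 5 of 6 (32.0%). Of those called against platypus, ESRP2 and ELF3 were listed at 0 there. GRHL2, a grainyhead transcription factor of epithelial identity, stood at 86.6 CPM in dog (81.7 to 91.7), 6.05 CPM in armadillo (4.80 to 7.53) and 8.02 CPM in platypus (18 reads, 4.76 to 12.7). Dog was 14.3-fold above armadillo (11.4 to 18.2) and 10.8-fold above platypus (6.80 to 18.3), and the interval of armadillo over platypus (0.448 to 1.34) included 1. EHF, an ETS-family factor, stood at 95.3 CPM in dog, 0.908 CPM (12 reads) in armadillo and 2.67 CPM (6 reads) in platypus. It was 105-fold higher in dog than in armadillo (59.9 to 204) and 35.7-fold higher in dog than in platypus (16.3 to 97.3).

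The related ETS-family factor ELF3 had a different profile. It stood at 80.4 CPM in dog and 37.1 CPM in armadillo, 2.17-fold apart (1.95 to 2.42) and not called, and was listed at 0 in platypus. Dog was at least 60.1-fold above platypus and armadillo at least 27.7-fold. OVOL1, a zinc finger factor that represses mesenchymal genes, stood at 24.0 CPM in dog and 1.34 CPM (3 reads) in platypus, a ratio of 17.95 (6.09 to 87.5).

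The 2 ESRP splicing regulators differed from each other in platypus. ESRP1 stood at 58.7 CPM in dog (54.7 to 62.9), 7.19 CPM in armadillo (5.82 to 8.79) and 23.2 CPM in platypus (17.3 to 30.4). ESRP2 stood at 103 CPM in dog and 11.1 CPM in armadillo and was listed at 0 in platypus. Dog was above armadillo 8.17-fold for ESRP1 (6.60 to 10.2) and 9.34-fold for ESRP2 (7.87 to 11.2), and ESRP2 was at least 77.2-fold higher in dog and at least 8.26-fold higher in armadillo than in platypus. ESRP1 was not called between dog and platypus (ratio 2.53, 1.91 to 3.42) or between armadillo and platypus, where platypus was 3.23-fold higher (2.25 to 4.57).

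Genes of membrane traffic and lipid metabolism were listed mainly in dog. CDS1, which makes CDP-diacylglycerol for phospholipids, stood at 36.4 CPM in dog, 3.71 CPM in armadillo and 3.12 CPM (7 reads) in platypus. Dog was 9.82-fold above armadillo (7.31 to 13.5) and 11.7-fold above platypus (5.62 to 29.2). RAB25, an epithelial GTPase of vesicle recycling, and MAL2, of transcytosis, were listed in dog only, at 71.3 and 27.9 CPM.

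Levels of different genes could be compared within dog, where gene lengths were recovered from the deposited relative abundance. In CPM per kilobase, KRT7 was highest at 1514, followed by DSP at 581, CLDN7 at 336 and CLDN4 at 324, against a median of 12.6 over 15085 dog genes with reads. KRT7 ranked 38 and DSP 115 of those genes. PERP (298) and CLDN8 (296) did not differ beyond their counting intervals (288 to 309 and 285 to 307). The regulators lay lower, between 23.3 for OVOL1 and 69.5 for ELF3, and CLDN1 (16.7), MARVELD2 (16.2), MARVELD3 (7.57) and CLDN10 (0.248) were at the bottom. DSP, with a model of 8610 bases, had more reads than KRT7, with 1443 bases, and a lower level per length.

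**Figure D4:**
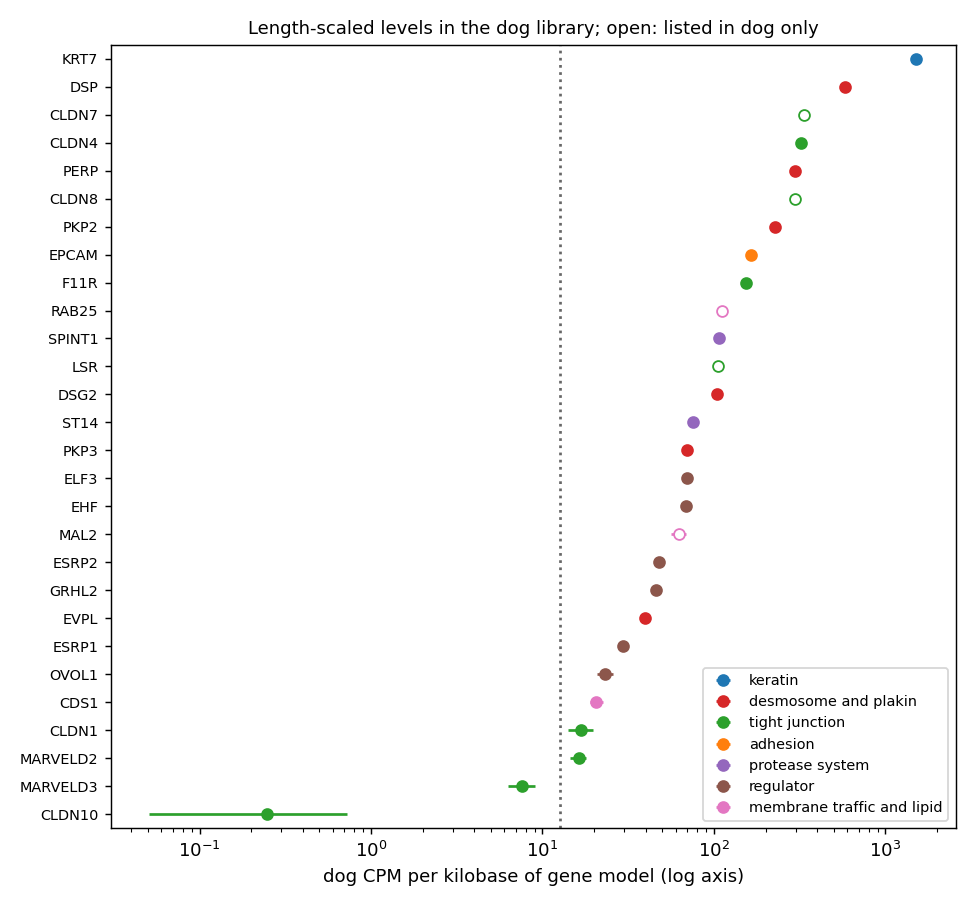
Dog CPM per kilobase of gene model (log axis) for the 28 of 44 listed symbols found in dog, ordered by level and coloured by class, with exact 95% counting intervals; open circles were listed in dog only and the dotted line is the median of dog genes with reads (12.6). KRT7 (1514) and DSP (581) are at the top and CLDN10 (0.248) at the bottom.

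Genes outside the members were read from 8 related lists, chosen with earlier results of these data known. Of 9 other desmosome and hemidesmosome genes, 6 were higher in dog than in armadillo (background 12.6%) and 1 lower (13.3%), with a median log2 fold of 4.49. COL17A1, a collagen of hemidesmosomes, stood at 167 CPM in dog and 1.74 CPM in armadillo, and the desmosomal cadherin DSC3 at 59.9 CPM in dog and 0.378 CPM in armadillo. Against platypus, 5 of 8 of these genes were higher in dog (background 32.0%), among them the integrin gene ITGB4 at 864 CPM in dog and 0.891 CPM in platypus and LAMB3 at 277 CPM in dog and listed at 0 in platypus. Between armadillo and platypus 2 of 7 (28.6%) were higher in armadillo, below the background of 36.1%, and 0 in platypus.

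Of the other epithelial regulators, 3 of 11 were higher in dog than in armadillo, and the background was 12.6%. The Krüppel-like factor gene KLF5 stood at 433 CPM in dog and 7.19 CPM in armadillo. Against platypus 6 of 12 (50%) were higher in dog, beside 32.0% of all genes, and 2 (16.7%) in platypus, beside 9.91%: FOXA2, a factor needed for uterine glands in mouse, stood at 0.661 CPM in dog and 57.5 CPM in platypus, and OVOL2, a relative of OVOL1, at 26.6 CPM in dog and 141 CPM in platypus. Between armadillo and platypus 2 of 10 (20%) were higher in armadillo, below the background of 36.1%, and 2 in platypus (background 11.0%), again OVOL2 (2.19 CPM in armadillo and 141 CPM in platypus) and FOXA2 (1.29 CPM in armadillo and 57.5 CPM in platypus). Among mesenchymal regulators, which repress epithelial genes, both of the 2 genes listed in dog and armadillo were lower in dog, ZEB1 at 4.77 CPM in dog and 365 CPM in armadillo and ZEB2 at 15.6 CPM in dog and 69.8 CPM in armadillo. ZEB1 was also called higher in armadillo than in platypus (365 CPM in armadillo and 7.13 CPM in platypus), and SNAI2 was higher in platypus (49.3 CPM in armadillo and 221 CPM in platypus). Between dog and platypus 0 of 2 were called.

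Shares of called genes in the other lists rest on few genes and are read against the same backgrounds. Other keratins were split between dog and armadillo, with 1 of 4 higher in each, KRT23 at 47.6 CPM in dog and 5.75 CPM in armadillo and KRT5, a basal cell keratin, listed at 0 in dog and at 6.66 CPM in armadillo. Against platypus 2 of 6 (33.3%, near the background of 32.0%) were higher in dog (KRT80 and KRT23), and 1 of 4 (KRT23; 25%, below 36.1%) was higher in armadillo. Other claudins were lower in dog than in armadillo in 2 of 3 cases, CLDN15 at 0.514 CPM in dog and 52.1 CPM in armadillo and CLDN11 listed at 0 in dog and at 18.4 CPM in armadillo. Against platypus 0 of 6 were higher in dog and 1, the endothelial claudin CLDN5, was higher in platypus, and 1 of 2 (CLDN15) was higher in armadillo than in platypus. Of 8 other serine protease and inhibitor genes, 1 was higher in dog (F2RL1, a receptor cleaved by such proteases, at 39.6 CPM in dog and 1.29 CPM in armadillo) and 1 in armadillo. Against platypus 4 of 8 (50%) were higher in dog, beside 32.0% of all genes, and 1 (12.5%) in platypus, beside 9.91%. Between armadillo and platypus 1 of 7 (14.3%) was higher on each side, beside 36.1% in armadillo and 11.0% in platypus.

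Markers of other cell types also differed between the libraries. Smooth muscle markers listed in all 3 tables (MYH11 and SYNM) summed to 97.2 CPM in dog, 12239 CPM in armadillo and 288 CPM in platypus, and 3 of 3 listed in both eutherians were higher in armadillo than in dog. ACTA2 of the same list went the other way, at 161 CPM in armadillo and 11301 CPM in platypus. Dog was far below platypus in CNN1, at 0.220 CPM in dog and 1148 CPM in platypus. MYL9 likewise stood at 22.2 CPM in dog and 2862 CPM in platypus. Of 4 smooth muscle markers listed in dog and platypus, 3 were higher in platypus (background 9.91%) and 1 in dog (32.0%). The 1 higher in dog was SYNM, at 95.6 CPM in dog and 10.7 CPM in platypus. The 3 stromal markers listed in all tables (COL3A1, LUM and POSTN) summed to 632 CPM in dog, 8718 CPM in armadillo and 1552 CPM in platypus. COL3A1 alone held 7623 CPM in armadillo, and LUM 1250 CPM in platypus. Of these 3, 2 were higher in armadillo than in dog (background 13.3%) and 1, LUM, was higher in platypus than in dog (9.91%). Of 9 stromal markers listed in armadillo and platypus, 6 (66.7%) were higher in armadillo (background 36.1%). LUM (333 CPM in armadillo) and DCN (1668 CPM in armadillo, 5099 CPM in platypus) leaned to platypus without a call. ESAM, the 1 endothelial marker listed in all tables, stood at 10.4 CPM in dog and 445 CPM in armadillo. It was listed at 0 in platypus. All 5 endothelial markers listed in armadillo and platypus were higher in armadillo, and 4 of them were listed at 0 in platypus. Of 4 listed in dog and platypus, 2 were higher in dog and 1 in platypus. The 1 higher in platypus was CLDN5, at 0.2936 CPM in dog and 16.94 CPM in platypus. CDH5, at 31.04 CPM in dog and 20.06 CPM in platypus, was not called. Of the leukocyte markers listed in dog and armadillo, 3 of 4 were higher in armadillo. KRT7 is also a trophoblast marker. The 4 other trophoblast markers in all tables (TFAP2A, TFAP2C, ELF5 and HAND1) summed to 8.15 CPM in dog, 71.8 CPM in armadillo and 11.6 CPM in platypus. TFAP2A, TFAP2C, ELF5, CDX2 and TEAD4 were listed at 0 in platypus. Of 8 trophoblast markers listed in dog and platypus, 3 (37.5%) were higher in dog (background 32.0%) and 1 (12.5%) in platypus (9.91%). Besides KRT7, those higher in dog were GATA3 (16.2 CPM in dog, 0.891 CPM in platypus) and TEAD4 (26.9 CPM in dog). Between dog and armadillo 1 of 6 (16.7%) was higher on each side, beside 12.6% and 13.3%. Of 5 ciliated cell markers listed in dog and platypus, 4 were higher in platypus, among them FOXJ1 at 0.440 CPM in dog and 498 CPM in platypus, and RSPH1, SPAG6, CCDC40 and DNAI1 were listed at 0 in dog. DNAI1 was listed at 0 in platypus too, and TEKT1 stood at 3.25 CPM in armadillo and 1.34 CPM (3 reads) in platypus. Of the mesothelial markers MSLN was listed in dog only (42.9 CPM), WT1 stood at 10.9 CPM in dog and 77.1 CPM in platypus, and none was matched in armadillo. The part of these cell types in the differences of the epithelial genes was not tested.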

How the data were processed

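The authors deposited 1 gene table per species. The dog table holds the authors' estimated counts (per the file headers, reads on each gene), equal to mapped bases divided by 34, of which 516 were not whole and were rounded. It also holds deposited scores (mapped bases and a relative abundance of unstated unit). The armadillo and platypus tables hold deposited raw counts. The submitters' processing notes name Bowtie; its version, genome builds and annotations were not given in the sources used here. Lines of totals, which name no gene, were left out.

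Genes were matched on upper-case symbols, repeated symbols were left out (0 among the members), and 82 of 1347 dog genes named by accession took their symbol from RefSeq. CPM is the count divided by the sum over listed genes. Levels have exact Poisson intervals and ratios exact intervals conditional on both counts (95%). Dog lengths were recovered as reads divided by relative abundance and by a fitted constant (equal to 22083782 if read as a number of reads), which gave whole lengths within 0.1 bases for 100% of 5644 genes with over 500 reads; 67.7% of lengths were multiples of 3. With 1 library per species no test was made.

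Calls (4-fold on CPM + 1, at least 5 CPM) were made on all matched genes. Scaling, library total, pseudocount, low-level filter, zeros, fold limit and symbol matching were varied. The call rule was tested on simulated data. Members and lists were chosen with earlier results of these data known. All members are described; from each related list at most 4 called genes per pair, those with the most extreme folds, are named, except 1 gene that is not reported here. Sequences, including a planned promoter motif search, were not analysed here. Python 3.11.15, numpy 2.4.6, pandas 2.3.3, scipy 1.17.1 and matplotlib 3.10.9 were used.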

Additional observations from a re-analysis of the deposited data

Results flagged for a closer look

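DSP and EVPL went in opposite directions when each eutherian was set against platypus. The log2 fold over platypus was 2.02 in dog and -3.07 in armadillo for DSP, and 2.23 in dog and -4.01 in armadillo for EVPL. With 1 library per species the difference was not tested, and both folds share the platypus library.

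Dog rows outside the comparisons carry UniProt entry names that match a listed symbol or its RefSeq synonym. They stood at 116.6 CPM for OCLN_CANFA, 79.1 CPM for PAX8_CANFA and 315 CPM for ZO1_CANFA, far above 0.220 CPM, the level of 3 reads in dog.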

How the results depend on the processing

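Over 639 values of single folds under the alternatives, called or not, 72 moved beyond counting error. No called fold of a member changed sign, but this outcome was nearly fixed and is no check. A call needs a log2 fold of at least 2 in size, well above the scaling shifts given below, and a pseudocount cannot change a sign. Folds with a listed 0 have no finite counting error and could not be counted as moved, so the 72 leaves them out. For ST14 in dog over platypus the log2 fold was 7.56, and it was 10.88 with a pseudocount of 0.1 CPM and 5.27 with 5 CPM. CDS1, not called in armadillo over platypus, was -0.02 on the log2 scale under median-of-ratios scaling instead of 0.19. CPM shifts the typical gene by 0.32 (dog over armadillo), 0.59 (dog over platypus) and 0.27 (armadillo over platypus) relative to median-of-ratios scaling. Under that scaling 13 members were higher in dog and 2 in armadillo (background 9.77% and 15.3%), 12 in dog and 1 in platypus (27.3% and 13.5%), and 9 in armadillo and 3 in platypus (34.1% and 13.2%).

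Members called higher in platypus than in dog numbered 1 under median-of-ratios and 1 under upper-quartile scaling, 2 with a 2-fold limit and 2 with the dog total of 22083782 reads, an alternative chosen after seeing the data, instead of 0. With 2 CPM required in both libraries, 1 of 18 members was higher in armadillo than in dog, 7 of 11 in dog than in platypus (background 25.9%), 3 of 13 in armadillo than in platypus and 1 of 8 in both eutherians. With genes at 0 left out, 9 of 13 were higher in dog than in platypus (background 28.8%), 4 of 15 in armadillo than in platypus (27.5%) and 2 of 10 in both eutherians (18.9%). A pseudocount of 5 CPM gave 4 higher in armadillo than in platypus and 3 in both eutherians, and a limit of 8-fold gave 6 higher in armadillo. These filters lose genes by construction. The platypus library, with 1 read worth 0.446 CPM, limits every comparison with it. No paired analysis was possible because each species has 1 library.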

Other observations

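Polarity genes set the apical and basal sides of an epithelial cell. LLGL2, a basolateral polarity gene, stood at 157 CPM in dog, 6.66 CPM in armadillo and 70.4 CPM in platypus. PRKCI, the atypical protein kinase C of the apical complex, stood at 179 CPM in dog, 8.93 CPM in armadillo and 80.2 CPM in platypus. Both were called higher in dog than in armadillo and higher in platypus than in armadillo, and neither was called between dog and platypus (log2 fold 1.14 for LLGL2 and 1.15 for PRKCI). PARD6B and DLG1 did not share these calls: PARD6B stood at 70.1 CPM in dog and 1.44 CPM in armadillo and was listed at 0 in platypus, and DLG1, named after its values were seen, was called in no pair. Of 13 other tight junction and polarity genes, 4 were higher in dog than in armadillo (background 12.6%) and 2 lower (13.3%), JAM3 at 5.50 CPM in dog and 44.03 CPM in armadillo and AMOT at 7.27 CPM in dog and 33.1 CPM in armadillo. Against platypus 3 of 12 (25%) were higher in dog, below the background of 32.0%. In armadillo over platypus 3 of 11 (27.3%) were higher, below 36.1%, and 2 (18.2%) lower, beside 11.0%.

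Adherens junction genes link cadherins to actin. CTNNB1, which encodes beta-catenin and was chosen after its values were seen, stood at 730.2 CPM in dog, 1121 CPM in armadillo and 2830.0 CPM in platypus and was called in no pair. CTNNA1, which encodes alpha-catenin, stood at 758 CPM in dog, 803 CPM in armadillo and 43.2 CPM in platypus and was called higher in both eutherians. Of 6 genes listed in dog and armadillo 1 (16.7%) was higher on each side, PVRL4 at 31.04 CPM in dog and 6.13 CPM in armadillo and VCL at 136 CPM in dog and 1092 CPM in armadillo. Against platypus 4 of 7 (57.1%) were higher in dog, beside 32.0% of all genes, and 3 of 8 (37.5%) in armadillo, near the background of 36.1%.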
